A study of Mus musculus with 8 samples.

Results

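C-type lectin receptors are surface proteins that read sugars and related ligands through a shared carbohydrate-recognition fold. The set described here holds 37 of the 35906 genes counted: every gene whose symbol starts with Clec and a digit, together with Mgl2, Mrc1, Mrc2, Ly75 and Cd207, the Cd209 genes being left out. RNA was measured in liver macrophages sorted as CD45-positive, F4/80-positive and CD31-negative cells from BALB/c wild-type mice, 4 libraries from mice given carbon tetrachloride (CCl4) and 4 from mice given vehicle. CCl4 is a hepatocyte toxin, and the series' title places the study in liver fibrosis. The labels used here give neither the dose and duration of CCl4 nor the age and number of mice. They also do not state whether libraries came from different animals, so p-values cover the spread among these libraries, part of which may be technical.

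Macrophages use these receptors in several ways. Some carry or recruit an activating motif that engages the kinase Syk and the adaptor Card9, as Dectin-1 (Clec7a), Dectin-2 (Clec4n) and Mincle (Clec4e) do after they bind fungal, mycobacterial or dead-cell ligands. Others carry an inhibitory motif that recruits phosphatases, and a further group, such as the mannose receptor (Mrc1), mainly takes up glycoproteins. In mouse liver Clec4f is a known marker of Kupffer cells, the resident macrophages of the sinusoids.

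Library totals lay between 19489104 and 26196063 estimated counts. Adgre1, which encodes F4/80, had 1091, 1414, 1200 and 1041 CPM (counts scaled to library size with edgeR's TMM factors) in CCl4 libraries, against 1327, 964, 1430 and 1367 CPM in vehicle libraries. Pecam1, which encodes CD31, was low but present, at 24.4 to 29.9 CPM in CCl4 libraries and 43.5 to 93.2 CPM in vehicle libraries. Of 10 Kupffer cell markers other than Clec4f, 9 were lower in CCl4 and none higher, with a summed level of 5390 to 8916 CPM in CCl4 and 10885 to 18830 CPM in vehicle. Of 9 markers of monocyte-derived cells, 5 were higher and none lower, with a sum of 1207 to 1510 CPM in CCl4 and 391 to 884 CPM in vehicle. Neutrophil markers summed to 90.6 to 358 CPM in CCl4 and 47.2 to 109 CPM in vehicle, with 4 of 10 higher and none lower. Vehicle 2 stood apart from its group: the mean chi-square per gene between it and the other vehicle libraries was 97.4 to 118, against 29.9 to 44.3 among the other vehicle libraries. In the CCl4 group the largest values were those of CCl4 2, at 45.1 to 76.1, against 35.6 to 42.6 among the other CCl4 libraries. In bulk RNA, fewer cells of a type and less RNA per cell cannot be told apart, which holds for every value below.

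The receptors did not move as a block. Of the 37 genes, 29 had enough counts to be tested and 8 were set aside. With edgeR's quasi-likelihood test and Benjamini-Hochberg adjustment over all 15212 genes tested (threshold 0.05), 8 of the 29 were higher in CCl4, where 8.93% of all genes tested were. Another 8 were lower, against a background of 6.26%. Together 16 of 29 were called, against 15.2% of all genes, and in 16 of 29 the libraries of the groups did not overlap, against 22.5% of all genes. The median log2 fold change, CCl4 over vehicle, was 0.31 over the tested receptors and -0.03 over all genes. Calls over all genes were 58.8% higher ones with TMM scaling, 47.5% with upper-quartile scaling and 43.1% with library size alone, where the median of all genes sat at -0.16. Under both of those scalings 7 receptors were called higher, Clec4a2 being lost, and 8 lower. Vehicle 2 and CCl4 4 had the lowest library totals. Without both of them, 11 receptors were called higher and 7 lower, in a fit that called 18.8% of all genes it tested.

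**Figure D1:**
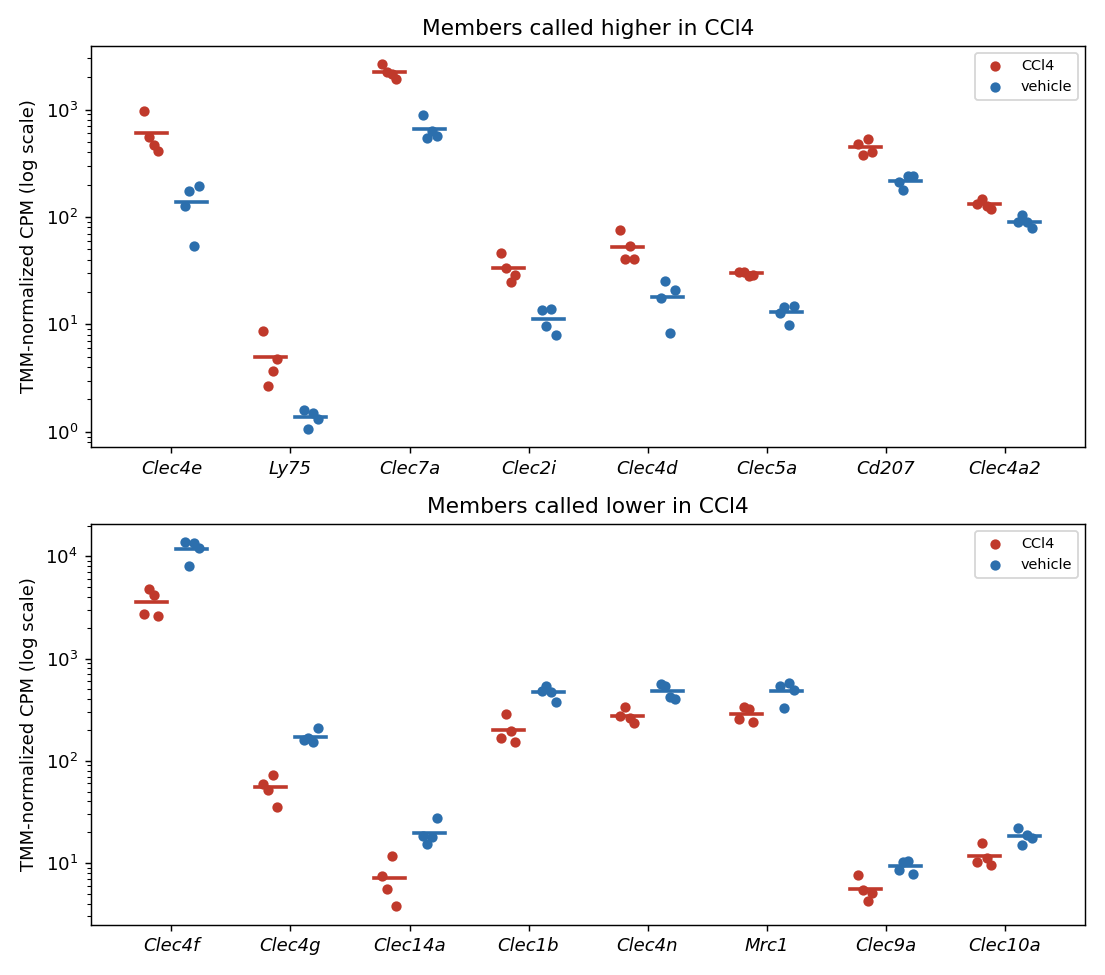
TMM-normalized CPM (log axis) of the 16 receptors called different, 8 higher in CCl4 above and 8 lower below, each dot a library and each line a group mean, CCl4 in red left of vehicle in blue. The groups are apart for every receptor except Mrc1 and Clec10a, where vehicle 2 lies among the CCl4 libraries.

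**Figure D2:**
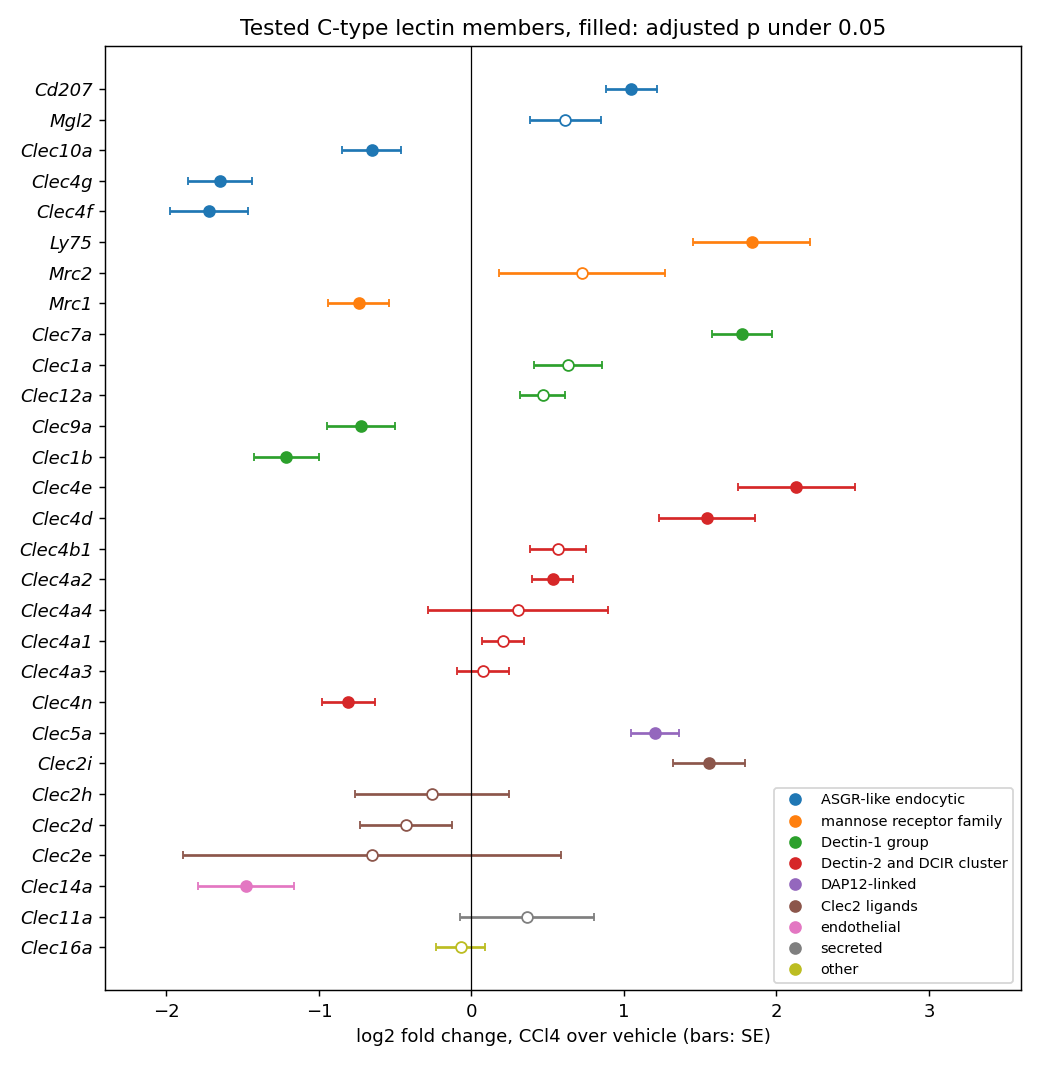
Log2 fold change, CCl4 over vehicle, with SE, for the 29 tested receptors, coloured by receptor group, with filled dots for adjusted p under 0.05. Within the endocytic, mannose receptor, Dectin-1 and Dectin-2 groups at least 1 member is higher and at least 1 lower.

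Clec4f, a galactose-binding endocytic lectin, was the most abundant receptor transcript in both groups and fell. It had 2740, 4811, 4233 and 2610 CPM in CCl4 libraries, against 13857, 8000, 13548 and 12055 CPM in vehicle libraries. Every CCl4 library was below every vehicle library, and the lowest vehicle library was vehicle 2. The log2 fold change was -1.72 (SE 0.26, adjusted p = 0.000977 by edgeR), or 3.3-fold lower. The summed level of the 10 Kupffer cell markers was also lowest among vehicle libraries in vehicle 2, at 10885 CPM, and without that library the log2 fold change of Clec4f was -1.87. The part of these markers' cells in the Clec4f and Clec1b results was not tested. The gene lies on mouse chromosome 6 (mm10, chr6:83644542-83656187, minus strand).

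Its neighbour Cd207 rose. Cd207 encodes langerin, the mannose-binding lectin of Langerhans cell granules, and lies 15027 bp away on the same strand (chr6:83671215-83677857). It had 483, 380, 534 and 406 CPM in CCl4 libraries, against 213, 176, 242 and 239 CPM in vehicle libraries. All 4 CCl4 libraries were above all vehicle libraries, with a log2 fold change of 1.05 (SE 0.17, adjusted p = 0.00142 by edgeR). The log2 ratio of Clec4f to Cd207 within a library, which does not depend on scaling between libraries, was 2.50, 3.66, 2.99 and 2.68 in CCl4 and 6.02, 5.50, 5.80 and 5.65 in vehicle. It differed by -2.79. Since neither gene overlapped between groups and they moved in opposite directions, their ratio had to separate, and no test of it is given.

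The 250 bases before the RefSeq start sites of 4 of these genes are shown because Clec4f and Cd207 are neighbours that moved in opposite directions, and Clec4e and Clec7a were the 2 strongly expressed activating receptors that rose. All are on mouse chromosome 6, minus strand, in the GRCm38.p6 build, 5′ to 3′ and ending at the base before the start. The letters are those of this reference build and were not read from the BALB/c mice. Capitals mark matches, on either strand, to GAGGAA (the core of PU.1 sites), TTNNGCAA (C/EBP type), TGANTCA (AP-1 type), CACGTG (the E-box of MiT/TFE factors), GTGGGAA (RBPJ type) and TATAAA.
Clec4f: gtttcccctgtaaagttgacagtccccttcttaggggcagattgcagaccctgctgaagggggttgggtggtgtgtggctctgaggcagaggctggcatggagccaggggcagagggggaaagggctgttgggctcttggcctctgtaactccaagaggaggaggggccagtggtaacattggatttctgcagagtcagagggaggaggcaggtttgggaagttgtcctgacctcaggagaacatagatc
Cd207: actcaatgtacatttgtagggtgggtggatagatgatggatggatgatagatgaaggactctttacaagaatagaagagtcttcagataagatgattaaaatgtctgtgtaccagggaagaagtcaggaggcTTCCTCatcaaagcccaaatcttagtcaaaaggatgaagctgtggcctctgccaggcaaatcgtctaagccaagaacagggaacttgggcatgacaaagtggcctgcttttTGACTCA
Clec4e: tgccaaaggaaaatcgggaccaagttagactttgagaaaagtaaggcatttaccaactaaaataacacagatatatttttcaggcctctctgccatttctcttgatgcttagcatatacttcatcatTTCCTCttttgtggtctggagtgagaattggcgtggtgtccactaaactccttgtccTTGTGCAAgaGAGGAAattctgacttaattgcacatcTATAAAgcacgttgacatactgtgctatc
Clec7a: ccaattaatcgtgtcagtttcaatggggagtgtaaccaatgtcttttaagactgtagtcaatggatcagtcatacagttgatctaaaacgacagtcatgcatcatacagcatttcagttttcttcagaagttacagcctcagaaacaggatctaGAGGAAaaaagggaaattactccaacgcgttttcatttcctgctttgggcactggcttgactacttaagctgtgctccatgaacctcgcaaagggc

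The Clec4f window (chr6:83656117-83656366) held none of the 6 motifs, and its last bases lie inside the GENCODE M21 gene, which starts further upstream. The Cd207 window (chr6:83677858-83678107) held GAGGAA on the minus strand of the gene, 118 to 113 bases before the start, and TGANTCA in its last 7 bases. The Clec4e window (chr6:123289872-123290121) held GAGGAA at 123 to 118 and at 56 to 51 bases before the start, TTNNGCAA at 66 to 59 and TATAAA at 29 to 24. The Clec7a window (chr6:129472780-129473029) held GAGGAA at 96 to 91 bases before the start. None of these matches overlapped another.

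Promoter windows were at hand for 29 of the 37 genes. GAGGAA was found in 16 of these 29, against 23.3% of the 32851 mouse promoter windows of the same length. TTNNGCAA was in 5 of 29, against 9.56% of all, TGANTCA in 6, against 6.75%, and TATAAA in 7, against 12.4%. GTGGGAA was in 1, against 5.42%, and CACGTG in none, against 6.02%. A match describes the letters of a window and not a bound factor.

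Clec4g encodes LSECtin, a lectin first known from liver and lymph node sinusoidal endothelium. It had 59.4, 52.1, 72.7 and 35.6 CPM in CCl4 libraries, against 161, 166, 152 and 210 CPM in vehicle libraries. The groups were well apart, and Clec4g fell by 1.65 on the log2 scale (SE 0.21, adjusted p = 0.000361 by edgeR). Clec14a, an endothelial membrane protein, had 7.45, 5.56, 11.6 and 3.76 CPM in CCl4 and 18.3, 15.3, 17.8 and 27.7 CPM in vehicle. It too had all CCl4 libraries below all vehicle libraries, with a log2 fold change of -1.48 (SE 0.31, adjusted p = 0.00809 by edgeR). Sinusoidal endothelial markers moved with them: 9 of 12 were lower and 1 higher (Fcgr2b, which macrophages also express), with none at 0 and a summed level of 556 to 828 CPM in CCl4 and 678 to 1201 CPM in vehicle. Their part in the Clec4g and Clec14a results was not tested.

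The paralogs Clec10a and Mgl2 encode MGL1 and MGL2, galactose-type lectins known from alternatively activated macrophages and dendritic cells, and lie 18646 bp apart on chromosome 11. Clec10a had 10.2, 15.5, 11.1 and 9.66 CPM in CCl4 libraries, against 22.1, 15.0, 18.7 and 17.5 CPM in vehicle libraries. CCl4 2 and vehicle 2 overlapped, and the log2 fold change was -0.66 (SE 0.19, adjusted p = 0.0398 by edgeR). That call held in 9 of 20 alternative settings and was lost without any of CCl4 1, CCl4 3, CCl4 4, vehicle 1, vehicle 3 or vehicle 4 (adjusted p from 0.014 to 0.124 over all settings).

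Mgl2 had 16, 14.2, 10.0 and 15.6 CPM in CCl4 and 10.1, 10.6, 5.58 and 10.1 CPM in vehicle, and it did not pass the test (log2 fold change 0.61, SE 0.23, adjusted p = 0.103 by edgeR). The ratio of the pair was more clearly separated than either gene. The log2 ratio of Clec10a to Mgl2 was -0.62, 0.12, 0.15 and -0.66 in CCl4 libraries and 1.09, 0.48, 1.66 and 0.77 in vehicle libraries. The difference was -1.25 (two-sided exact permutation p = 0.0286, the smallest that 4 against 4 allows). The 3 permutation tests run include that of the Clec4f to Cd207 ratio, which had to separate. Adjusted over all 3, the permutation p of Clec10a to Mgl2 was 0.0429. Counting the Clec4f to Cd207 test lowered that value, so no call is drawn from it. Without CCl4 1 the Clec10a to Mgl2 difference was -1.13 and without CCl4 4 it was -1.12, each at p = 0.0571 by the exact permutation test. Reads can be shared between paralogs, and how kallisto divided them between these 2 genes was not tested.

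The 3 mannose receptor family genes took different courses. Mrc1 encodes the macrophage mannose receptor CD206, which clears glycoproteins from the sinusoidal blood. It had 259, 335, 321 and 242 CPM in CCl4 libraries, against 536, 328, 581 and 488 CPM in vehicle libraries. Vehicle 2 lay inside the CCl4 range, and the log2 fold change was -0.74 (SE 0.20, adjusted p = 0.0262 by edgeR). The call was lost without CCl4 1, CCl4 4, vehicle 1, vehicle 3 or vehicle 4. Mrc1 was, like Clec9a, Clec4a2, Clec12a, Clec1a and Clec4b1, picked for description after its values were seen.

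Ly75 encodes DEC-205, an antigen-uptake receptor of dendritic cells. It had 8.60, 2.64, 3.67 and 4.80 CPM in CCl4 and 1.60, 1.07, 1.5 and 1.32 CPM in vehicle. It was low in every library but higher in all 4 CCl4 libraries, with a log2 fold change of 1.84 (SE 0.38, adjusted p = 0.00715 by edgeR). Mrc2, the collagen-uptake receptor Endo180, was between 0.28 and 1.38 CPM in the 8 libraries and was not called (adjusted p = 0.432 by edgeR).

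Clec7a encodes Dectin-1, the receptor for fungal beta-glucan, and was the second most abundant receptor transcript in CCl4. It had 2646, 2214, 2163 and 1944 CPM in CCl4 libraries, against 890, 543, 627 and 562 CPM in vehicle libraries. The lowest CCl4 library was above the highest vehicle library by more than the width of either group. The log2 fold change was 1.77 (SE 0.20, adjusted p = 0.000165 by edgeR), or 3.42-fold higher, and it stayed between 1.64 and 1.97 in the 20 alternatives.

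Mouse Dectin-1 is known to be spliced with or without a stalk exon, and strains differ in the balance. Clec7a-202 was taken as the model without that exon. It took 6.56%, 5.18%, 7.76% and 5.92% of the summed estimated counts of Clec7a-201, Clec7a-202 and Clec7a-204 in CCl4, and 6.71%, 6.56%, 6.64% and 6.90% in vehicle. Most of those counts were on Clec7a-204, which is annotated as a polymorphic pseudogene. The groups overlapped and the difference of -0.35 percentage points did not pass (two-sided exact permutation p = 0.571). Without CCl4 3 it was -0.82 (exact permutation p = 0.0286). On the length-corrected TPM scale the share was 23.6% ± 3.3 in CCl4 and 24.7% ± 0.73 in vehicle (SD, n = 4 each). Clec7a-202 is annotated with 707 bases and lacks the long 3′ end of Clec7a-201 and Clec7a-204, 2277 and 2272 bases long. Reads from that end could go only to those models, so the share is not an isoform level.

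The neighbours of Clec7a on chromosome 6 did not follow it as a group. Clec1b encodes CLEC-2, the receptor for podoplanin, known from platelets and Kupffer cells. It had 166, 290, 194 and 153 CPM in CCl4 libraries, against 483, 535, 473 and 373 CPM in vehicle libraries. All CCl4 libraries were lower, with a log2 fold change of -1.21 (SE 0.21, adjusted p = 0.00266 by edgeR). Of the 7 platelet markers 5 could be tested, and 1, Pf4, was lower. The 7 summed to 31.9 to 96.2 CPM in CCl4 and 83.6 to 204 CPM in vehicle, nearly all of it Pf4, with none at 0 in all libraries. No platelet marker other than Pf4 went above 3.20 CPM, the level of Ppbp in vehicle 4, and Gp9 reached at most 0.521 CPM. Treml1 went the other way, at 0.601 to 1.38 CPM in CCl4 and 0 to 0.511 CPM in vehicle, and was not called (adjusted p = 0.149 by edgeR). The part of platelets in the Clec1b result was not tested.

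Clec9a encodes DNGR-1, a receptor for exposed actin filaments of dead cells known from conventional dendritic cells, and overlaps the end of Clec1b by 474 bp. Both genes lie on the plus strand, so strand could not tell reads of the shared stretch apart. Clec1b, also lower in CCl4, was far more abundant, with means of 201 CPM in CCl4 and 466 CPM in vehicle. The part of shared reads in the Clec9a result was not tested. Clec9a had 7.63, 5.40, 4.21 and 5.09 CPM in CCl4 and 8.57, 10.3, 10.4 and 7.76 CPM in vehicle. CCl4 1 came within 0.2 CPM of the lowest vehicle library, and the log2 fold change of -0.73 was close to the threshold (SE 0.22, adjusted p = 0.0481 by edgeR). It was called in 6 of 20 alternatives and was lost without any single library other than CCl4 1. Of 10 dendritic cell markers Flt3 was higher and Batf3 lower, and they summed to 150 to 337 CPM in CCl4 and 134 to 208 CPM in vehicle, with none at 0 in all libraries. Their part in the Clec9a and Ly75 results was not tested.

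Clec12a, an inhibitory receptor for uric acid crystals, had 338, 421, 373 and 299 CPM in CCl4 and 273, 257, 263 and 243 CPM in vehicle. The groups were apart, but the gene did not pass the test (log2 fold change 0.47, adjusted p = 0.0528 by edgeR), and 5 of 20 alternatives called it higher. Clec1a, the melanin receptor MelLec, had 11.4, 7.81, 8.65 and 6.52 CPM in CCl4 and 6.49, 6.04, 4.94 and 4.72 CPM in vehicle, again apart and not called (adjusted p = 0.0817 by edgeR). It lies between Clec9a, 8 bp away, and Clec7a, 9590 bp away.

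The Dectin-2 and DCIR cluster on chromosome 6 holds activating receptors that pair with the Fc receptor gamma chain and inhibitory receptors of the DCIR family. Of its 9 genes 8 were tested, with 3 higher, 1 lower and 4 not called, where 8.93% of all genes tested were higher and 6.26% lower. Clec4e encodes Mincle, a receptor for mycobacterial cord factor and for material of dead cells, and had the steepest rise of all the receptors. It had 969, 556, 470 and 413 CPM in CCl4 libraries, against 128, 173, 53.3 and 196 CPM in vehicle libraries. The spread within each group was wide, yet no libraries overlapped, and the log2 fold change was 2.13 (SE 0.38, adjusted p = 0.0031 by edgeR).

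Clec4d encodes MCL, a partner of Mincle in the recognition of cord factor, and lies 6523 bp from Clec4e. It had 76.0, 40.5, 54.2 and 40.3 CPM in CCl4 libraries, against 17.7, 25.6, 8.35 and 20.7 CPM in vehicle libraries. Vehicle 3 was the lowest library for both genes and CCl4 1 the highest. The log2 fold change of Clec4d was 1.55 (SE 0.31, adjusted p = 0.00602 by edgeR). Beside Clec4e, Clec4d and Clec5a, 5 of 9 monocyte-derived markers and 4 of 10 neutrophil markers were called higher. The neutrophil sums were 358, 318, 243 and 90.6 CPM in CCl4 libraries, against 67.2, 56.8, 47.2 and 109 CPM in vehicle libraries. The part of monocyte-derived cells and neutrophils in the results was not tested.

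Clec4n, which encodes the alpha-mannan receptor Dectin-2, lies 15089 bp from Clec4d and went the other way. It had 276, 334, 260 and 233 CPM in CCl4 libraries, against 570, 539, 419 and 404 CPM in vehicle libraries. All CCl4 libraries were below all vehicle libraries, with a log2 fold change of -0.81 (SE 0.17, adjusted p = 0.00859 by edgeR).

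**Figure D3:**
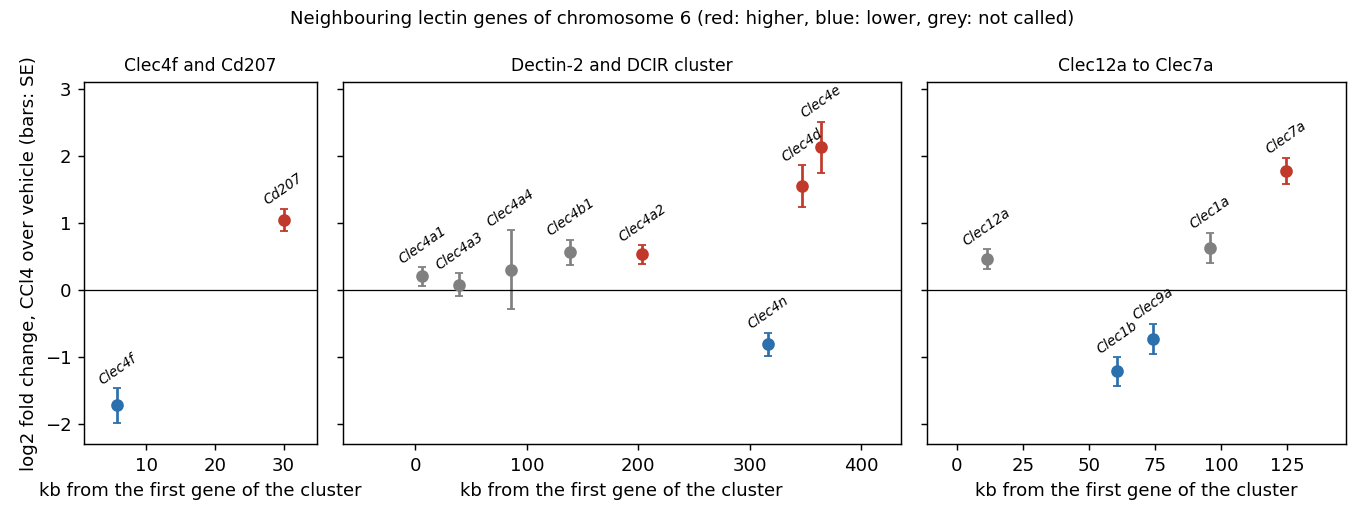
Log2 fold change, CCl4 over vehicle, with SE, of tested receptors in 3 stretches of chromosome 6, placed at the gene's midpoint in kb from the first gene of the stretch. Clec4f and Cd207 have opposite signs 15027 bp apart, Clec4n differs in sign from Clec4d and Clec4e, and Clec1b and Clec9a from Clec7a.

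The DCIR-type genes moved little. Clec4a2, the inhibitory receptor DCIR, had 131, 145, 128 and 120 CPM in CCl4 libraries, against 90.5, 104, 89.4 and 78.5 CPM in vehicle libraries. The groups were apart by a narrow gap, and it was called higher with a log2 fold change of 0.53 (SE 0.14, adjusted p = 0.0223 by edgeR). That call was lost with library size alone, upper-quartile scaling and both fits on FPKM, and without CCl4 2, vehicle 3 or vehicle 4. Clec4a3, a DCIR relative, was among the 6 most abundant receptors and had 287, 414, 295 and 297 CPM in CCl4 and 280, 367, 315 and 265 CPM in vehicle. Its groups overlapped throughout (log2 fold change 0.08, SE 0.17, adjusted p = 0.819 by edgeR), with a sign that turned under upper-quartile and library-size scaling. Clec4b1, an activating relative that binds mycobacterial mannosides, had 58.5 to 70.1 CPM in CCl4 and 34.2 to 61.0 CPM in vehicle and was not called (adjusted p = 0.0626 by edgeR). Clec4a1 and Clec4a4 were not called either, at adjusted p of 0.375 and 0.793 by edgeR.

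Clec5a encodes MDL-1, which signals through the adaptor DAP12 (Tyrobp). It had 30.9, 31.0, 28.3 and 28.7 CPM in CCl4 libraries, against 12.7, 14.4, 9.77 and 14.8 CPM in vehicle libraries. The CCl4 libraries lay within 3 CPM of each other and well above vehicle, with a log2 fold change of 1.20 (SE 0.16, adjusted p = 0.000392 by edgeR).

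The Clec2 genes encode surface ligands for NKR-P1 receptors of natural killer cells. Clec2i, whose product Clr-g is bound by NKR-P1F, was the one called among the 4 tested, where 15.2% of all genes tested were called. It had 46.5, 33.6, 24.6 and 29.0 CPM in CCl4 libraries, against 13.7, 9.75, 13.9 and 7.96 CPM in vehicle libraries. The groups were apart, with a log2 fold change of 1.56 (SE 0.24, adjusted p = 0.00107 by edgeR). Clec2d, Clec2e and Clec2h were not called (adjusted p of 0.399, 0.789 and 0.798 by edgeR), and none of the 3 went above 4.32 CPM.

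Clec16a and Clec11a are in the set by symbol, but their proteins are not macrophage receptors. Clec16a, an endosomal protein that acts in mitophagy, had 15.4 to 16.7 CPM in CCl4 and 13.9 to 21.5 CPM in vehicle. Clec11a, a secreted growth factor, had 0.971 to 2.31 CPM in CCl4 and 0.836 to 1.76 CPM in vehicle. Neither was called, at adjusted p of 0.822 and 0.652 by edgeR. The 8 genes set aside were Clec12b, Clec18a, Clec2g, Clec2j, Clec2l, Clec3a, Clec3b and Clec4b2. None of them went above 0.860 CPM, and Clec3a, known from cartilage, had no count in any library.

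TPM values, which correct for transcript length, allow levels of different genes to be set side by side. Averaged over the 8 libraries, 11 receptors were at 100 TPM or more, 2 of these at 1000 or more. Another 8 were from 10 to 100 TPM and 18 under 10. Clec4f came first in both groups, at 1921 ± 528 TPM in CCl4 and 6554 ± 1650 TPM in vehicle (SD, n = 4 each). In CCl4 it was followed by Clec7a at 1622 ± 176 TPM, Cd207 at 424 ± 40.8 TPM and Clec4a3 at 415 ± 91.2 TPM. Clec4f and Clec7a overlapped in TPM across the CCl4 libraries. In vehicle Clec4f was followed by Clec1b at 664 ± 56.3 TPM, Clec4n at 614 ± 67.0 TPM and Clec7a at 489 ± 109 TPM.

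The make-up of the receptor pool differed accordingly. Clec4f made up 23.3%, 36.0%, 34.4% and 27.4% of the summed TPM of the 37 genes in CCl4 libraries, against 67.6%, 55.5%, 69.8% and 68.3% in vehicle libraries. Clec7a made up 30.4%, 21.6%, 24.7% and 27.2% in CCl4 and 5.93%, 5.06%, 4.42% and 4.37% in vehicle. Neither share overlapped between groups, and in CCl4 1 Clec7a took the larger share of the pair. The sum over all 37 was 6290 ± 664 TPM in CCl4 and 9908 ± 1686 TPM in vehicle (SD, n = 4 each). Without Clec4f the order was the other way, with 4369 ± 389 TPM in CCl4 and 3354 ± 77.5 TPM in vehicle. That sum still holds Clec7a, at 1622 ± 176 TPM in CCl4 and 489 ± 109 TPM in vehicle. Its order therefore does not show that the other receptors rose as a pool.

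**Figure D4:**
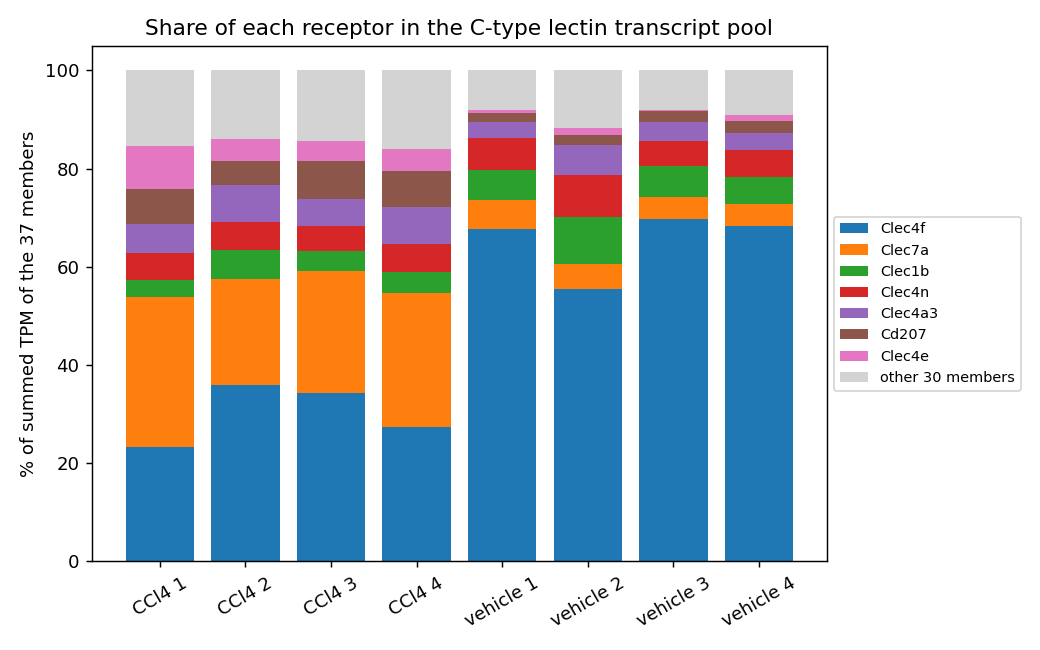
Share of each receptor in the summed TPM of the 37 genes, in percent, for the 4 CCl4 and then the 4 vehicle libraries, with the 30 less abundant genes in grey. Clec4f takes 23.3% to 36.0% in CCl4 and 55.5% to 69.8% in vehicle, and Clec7a 21.6% to 30.4% in CCl4 and 4.37% to 5.93% in vehicle.

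Genes that carry signals from these receptors were taken from a list of 42 partners, kinases, adaptors and transcription factors, all of which were tested. In CCl4 7 were higher, 1 was lower and 34 were not called, with a median log2 fold change of 0.33 against -0.03 over all genes. The share called higher was 7 of 42, against 8.93% of all genes tested. The number varied with the setting from 3 genes (both FPKM fits) to 12 (DESeq2, and without vehicle 1). The calls over all genes varied too. The FPKM fits called 532 and 571 of 12379 genes higher (pseudocounts 1 and 0.1). DESeq2 called 1787 of 15212 higher, and the fit without vehicle 1 called 1232 of 15742. Blnk, an adaptor phosphorylated by Syk, had 151, 151, 182 and 142 CPM in CCl4 libraries, against 44.5, 29.6, 27.5 and 31.3 CPM in vehicle libraries. It was apart by a wide gap, with a log2 fold change of 2.24 (SE 0.18, adjusted p = 2.28e-05 by edgeR).

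Malt1, the protease of the Card9, Bcl10 and Malt1 complex, had 180, 91.0, 111 and 98.8 CPM in CCl4 and 50.2, 37.3, 27.9 and 34.9 CPM in vehicle. It rose by a log2 fold change of 1.68 (SE 0.24, adjusted p = 0.000806 by edgeR). Syk itself had 511, 394, 443 and 357 CPM in CCl4 and 325, 157, 235 and 243 CPM in vehicle. Its groups were apart, with a log2 fold change of 0.83 (SE 0.21, adjusted p = 0.0223 by edgeR), and the call was lost in both FPKM fits and without CCl4 1, vehicle 3 or vehicle 4.

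Prkcd, the kinase that phosphorylates Card9, rose by a log2 fold change of 0.92. The others called higher were the kinase subunit Pik3cb at 1.21, the ubiquitin ligase Cblb at 1.15 and the transcription factor Nfatc2 at 0.81. Those 3 lost their calls in both FPKM fits. The exchange factor Vav2 was the gene called lower (log2 fold change -0.58, SE 0.17, adjusted p = 0.0434 by edgeR), and 10 of 20 alternatives kept that call. It was lost without CCl4 1, CCl4 2, CCl4 4, vehicle 1, vehicle 3 or vehicle 4.

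The proximal partners were measured at levels that did not differ detectably. Fcer1g, the Fc receptor gamma chain that Mincle and Dectin-2 need, had 1240, 1326, 1350 and 1021 CPM in CCl4 and 1090, 1384, 974 and 956 CPM in vehicle (adjusted p = 0.601 by edgeR). Tyrobp, the DAP12 partner of Clec5a, had 1107 to 1571 CPM in CCl4 and 1154 to 1359 CPM in vehicle (adjusted p = 0.735 by edgeR). Card9 had 5.37 to 8.33 CPM in CCl4 and 4.32 to 7.0 CPM in vehicle (adjusted p = 0.536 by edgeR). These 3 were singled out after their values were seen.

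**Figure D5:**
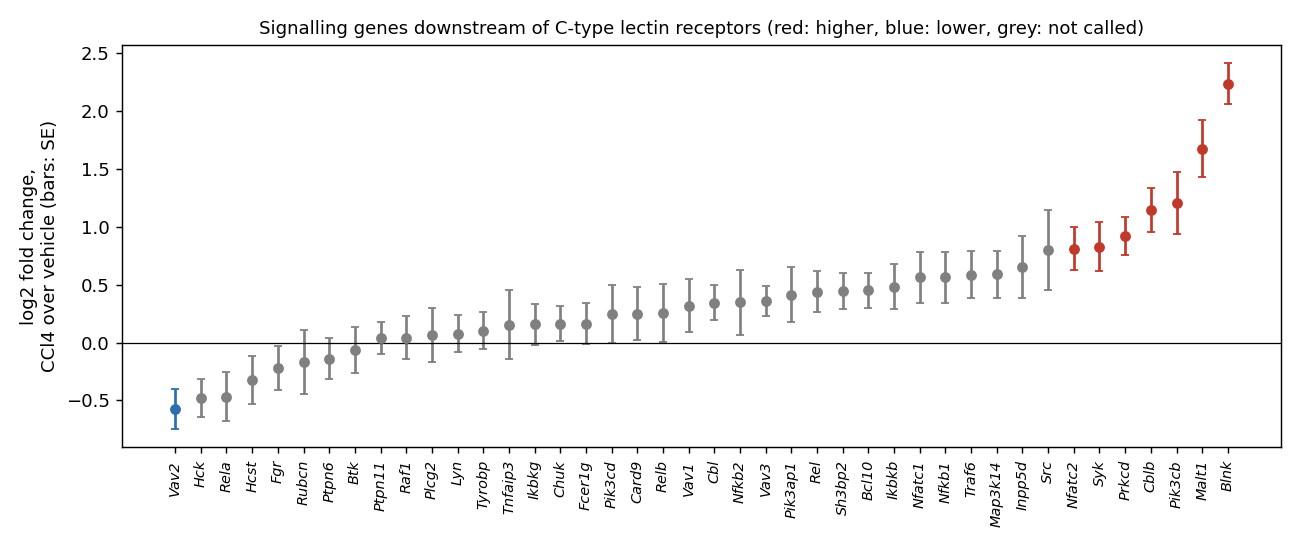
Log2 fold change, CCl4 over vehicle, with SE, of the 42 signalling genes in order of fold change. The 7 called higher (red) run from 0.81 for Nfatc2 to 2.24 for Blnk, Vav2 (blue) is at -0.58, and Card9, Fcer1g and Tyrobp lie among the 34 not called (grey).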

How the data were processed

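RNA of sorted liver macrophages was amplified (SMART-Seq HT) before NEBNext Ultra II library preparation, per the labels' protocols, which name no step that marks the strand. The deposited tables hold kallisto estimated counts per transcript and TPM values, made by the authors, and the series table holds FPKM per gene, deposited by the authors. The submitters' processing notes name kallisto, edgeR, limma and mm10. Tool versions, and how the FPKM were made, are not given there.

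Transcripts were assigned to GENCODE M21 genes by identifier without version: 116405 of 117494 matched. The 1089 others, 0.29% to 0.313% of a library's counts, were left out. Counts were summed per gene, rounded and filtered with filterByExpr (minimum count 10, minimum total 15), leaving 15212 genes. CCl4 was compared with vehicle by edgeR 4.0.16 (R 4.3.3), quasi-likelihood test, TMM, Benjamini-Hochberg threshold 0.05, two-sided. SE is the log2 fold change divided by the root of F. Log2 ratios used CPM plus 0.5. Of the alternatives, 20 were refits, with DESeq2 1.42.0 and limma 3.58.1 (voom, and log2 of FPKM plus 1 or 0.1) among them. The edgeR fit was tested on simulated data. The closest 2 libraries of a group had a mean chi-square per gene of 29.9, so none was a duplicate.

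Members and gene lists were chosen with earlier results of these data known. Named were receptors called with an absolute log2 fold change of 1 or more, the 6 with the highest mean TPM, Cd207, Clec10a, Mgl2 and Clec7a, and up to 8 called signalling genes. Depth, 19489104 to 26196063 counts per library, leaves receptors under about 1 CPM with few counts. Endothelial, platelet, dendritic, neutrophil, Kupffer and monocyte lists stand in the report. Of the other marker lists, summed in CPM, pan-macrophage genes ran from 48659 to 62085 in CCl4 and 22481 to 25507 in vehicle (1 of 8 higher, Lyz2, none lower). Most of that sum was Lyz2, with means of 47034 CPM in CCl4 and 16441 CPM in vehicle, and the 7 other genes were not called. B cell genes ran from 37.1 to 71.5 in CCl4 and 65.9 to 104 in vehicle (none of 5 higher, 1 lower). Natural killer and T cell genes ran from 27.0 to 38.0 in CCl4 and 21.1 to 40.6 in vehicle (none of 6 called), hepatocyte genes from 40.7 to 86.4 in CCl4 and 67.0 to 103 in vehicle (none of 5 higher, 1 lower), and stellate genes from 112 to 218 in CCl4 and 99.4 to 463 in vehicle (2 of 7 higher, 2 lower).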

Additional observations from a re-analysis of the deposited data

Results flagged for a closer look

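In 58 groups of 4 libraries (29 tested receptors in CCl4 and in vehicle), 3 held a library far from the other 3 by Dixon's criterion, which chance meets in about 1 group of 20. Clec2e stood at 3.66 CPM in CCl4 4, against 0 to 0.509 CPM in the other CCl4 libraries. Clec4a3 stood at 414 CPM in CCl4 2, against 287 to 297 CPM in the other CCl4 libraries. Mgl2 stood at 5.58 CPM in vehicle 3, against 10.1 to 10.6 CPM in the other vehicle libraries.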

How the results depend on the processing

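Cd207, Clec14a, Clec1b, Clec2i, Clec4d, Clec4e, Clec4f, Clec4g, Clec4n, Clec5a, Clec7a and Ly75 were called in the same direction in each of the 20 alternatives that tested them (18 for Ly75). Over the tested receptors and the 11 signalling genes named, 695 values kept direction and side of the threshold, 59 lost the call, 15 gained one and 16 turned sign; causes were not tested. Receptors called lower numbered 5 to 7 when 1 library was left out and 5 with the replicate block. Calls over all genes moved too: 10.0% to 17.3% of genes tested with 1 library left out and 13.9% with the block, against 15.2% in the main fit. The replicate numbers did not pair the libraries (same-number correlations 0.015, -0.24, 0.039 and -0.17). With the block 10 receptors were called higher, Clec4b1 and Mgl2 being gained and Clec10a, Clec9a and Mrc1 lost. The block left the Clec4f to Cd207 difference at -2.79 and the Clec10a to Mgl2 difference at -1.25, this second one at an exact p of 0.125, the smallest 4 pairs allow. Leaving out 1 library gave -1.43 to -1.03 for the Clec10a to Mgl2 difference and -0.82 to 0.045 percentage points for the Clec7a-202 share. Signalling genes called higher numbered 12 with DESeq2, 3 with each FPKM fit and 6 to 12 with 1 library left out. DESeq2 called 19.9% of all genes tested, and the FPKM fits 8.85% and 9.16%. Signalling genes called lower numbered 2 with upper-quartile scaling, DESeq2, a minimum count of 30 and without vehicle 2 and CCl4 4 together, 3 with library size alone, 0 with length-scaled TPM counts, both FPKM fits and the block, and 0 to 3 with 1 library left out. The uncalled log2 fold change of Clec16a turned to 0.16 with length-scaled counts, 0.18 and 0.32 with FPKM (pseudocounts 1 and 0.1) and 0.080 without vehicle 2 and CCl4 4, and ran from -0.15 to 0.060 with 1 library left out. Clec4a3 turned to -0.024 with upper-quartile scaling, -0.054 with library size alone, and -0.033 and -0.035 with FPKM, and ran from -0.060 to 0.17 with 1 library left out. Tyrobp turned to -0.036 with library size alone and to -0.18 with each FPKM fit, and Clec2h turned to 0.092 with length-scaled counts. With 1 library left out, Clec2e ran from -3.16 to 0.44 and Clec4a4 from -0.043 to 0.60. Receptors near 1 CPM rest on few counts.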

Other observations

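Of the Clec4e transcript models, 3 are annotated as retained introns. They took 37.9%, 43.5%, 44.1% and 53.1% of the Clec4e estimated counts in CCl4 libraries, against 32.7%, 30.5%, 53.2% and 39.5% in vehicle libraries. The groups overlapped. Of the 37 receptor genes 25 lie on chromosome 6, and 20 of these were tested, with 7 higher and 4 lower in CCl4, where 8.93% of all genes tested were higher and 6.26% lower. Clec7a is annotated in GENCODE M21 as a polymorphic pseudogene, and its model Clec7a-204 took most of its counts in every library. Clec2j is annotated as an unprocessed pseudogene and had at most 2 estimated counts in a library.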
